A study of Mus musculus with 4 samples.

Results

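Matrix Gla protein (Mgp), the BMP ligands Bmp2, Bmp4, Bmp6 and Bmp7, and the BMP inhibitors Nog, Grem1, Bmper, Crim1 and Twsg1 were examined in cells sorted from mouse cerebrum. The members were taken by gene symbol, and all 10 were found among the 24873 genes of the deposited table. RNA was sequenced on day 9, with 2 libraries per group (control and tamoxifen) and cells of 3 mice pooled in each library. Both groups had the genotype Cdh5cre;Mgpflox/flox, written VE-cadherin cre/ERT2 Mgp fl/fl in the study, in which tamoxifen switches on a recombinase under the endothelial VE-cadherin promoter and the recombinase cuts the floxed Mgp gene. Mice of the tamoxifen group were 10 weeks old at the start and got 5 daily injections of 75 mg/kg, and the controls carried the same alleles and received no tamoxifen. The labels call the sorted cells tdTomato+, whereas the study describes them as CD31+CD45-. The table marks its columns C and A, with C read as control and A, which no label explains, as tamoxifen.

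MGP is a small secreted protein that depends on vitamin K, guards soft tissue against mineral, and binds BMPs so that they cannot reach their receptors. BMPs are secreted growth factors of the TGF-β family that act through paired type I and type II receptors and SMAD proteins, and in vessels they steer endothelial growth and arteriovenous identity. Their reach is set outside the cell by noggin, gremlin, BMPER, CRIM1 and twisted gastrulation, each of which holds BMP proteins or alters their capture. The comparison asked how the RNA of these ligands and inhibitors stood after endothelial Mgp deletion.

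Of the inhibitors, Grem1 and Bmper had the largest increases among the members and Crim1 was the member that fell, so the DNA just before these genes is shown for orientation. RefSeq upstream sequences were listed for 6 of the 10 members, and the stretch of 170 bases right before the GENCODE gene could be taken from them for these 3. The sequences are given 5′ to 3′ in the direction of transcription on GRCm39, with capitals at 2 GC-rich SMAD motifs. The motif GGCGCC reads the same on both strands. The motif GGAGCC was searched on both strands too, and its reverse complement is GGCTCC. These motifs do not overlap in the stretches shown.
Grem1, minus strand, chr2:113589001-113589170: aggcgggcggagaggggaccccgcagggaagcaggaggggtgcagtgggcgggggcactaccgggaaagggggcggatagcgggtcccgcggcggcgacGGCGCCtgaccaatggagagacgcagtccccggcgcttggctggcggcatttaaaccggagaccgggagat
Bmper, plus strand, chr9:23134155-23134324: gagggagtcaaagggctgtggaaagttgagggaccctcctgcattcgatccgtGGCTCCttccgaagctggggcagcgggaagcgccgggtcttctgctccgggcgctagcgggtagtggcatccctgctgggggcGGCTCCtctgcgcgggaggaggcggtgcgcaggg
Crim1, plus strand, chr17:78507431-78507600: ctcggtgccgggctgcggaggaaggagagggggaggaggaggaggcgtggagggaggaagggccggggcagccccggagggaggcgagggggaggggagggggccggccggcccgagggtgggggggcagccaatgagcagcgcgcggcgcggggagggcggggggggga
All 3 stretches were rich in CG dinucleotides, with 19 in Grem1, 14 in Bmper and 16 in Crim1 against a median of 4 over 32851 RefSeq promoter windows of the same length. The Grem1 stretch held 1 GGCGCC motif, the Bmper stretch held 2 copies of GGCTCC, and neither motif occurred in the Crim1 stretch. At least 1 of these motifs was present in 24.98% of all windows (GGCGCC in 7.63% and GGAGCC in 19.7%), and a match describes letters only.

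The values are normalized counts, that is reads per gene divided by the authors by 1 factor per library, and 100% of them could be turned back into whole reads (35387438 to 49799321 reads on genes per library). Changes were tested with limma on log2(normalized count + 1) in the 20485 genes whose mean reached 10 normalized counts. A gene was called at a Benjamini-Hochberg adjusted p under 0.05 and a log2 fold change over 1 in size. At these thresholds 44.7% of all tested genes were called (28.6% of the tested genes higher and 16.0% lower in the tamoxifen libraries), so a call by itself was common. The share was 45.1% with edgeR and 42.7% with DESeq2 on the recovered reads (27.8% higher and 14.9% lower with DESeq2), and 58.9% passed limma's adjusted p without the fold limit. With totals made equal the higher genes were 79.7% of the calls, and with quantile normalization 47.3%, against 64.1% with the authors' factors. Of the 10 members, 5 were called higher (Bmp6, Bmp7, Nog, Grem1 and Bmper), 1 was called lower (Crim1), and Mgp, Bmp2, Bmp4 and Twsg1 were not called. The median log2 fold change of the members was 0.93, against 0.05 over all tested genes. The members were chosen with earlier results of these data known, so this comparison is a description only. In all 10 members the libraries of the groups did not overlap, which also held for 82.3% of all tested genes. The smallest p of an exact two-sided permutation test of 2 libraries against 2 is 0.333. The adjusted p-values therefore borrow their estimate of the spread from all genes, and that spread is one between pooled samples only.

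The RNA composition of the libraries also differed between the groups. The 10 endothelial markers, among them Pecam1, Cdh5 and Kdr, were all lower, and their summed level was 909669 to 941572 normalized counts in the control and 78156 to 155806 in the tamoxifen libraries. The summed level was 2545 to 3541 against 62868 to 72978 for 10 fibroblast and meningeal markers (10 called higher, Dpt with no read in the controls), and 27399 to 31759 against 138253 to 292326 for 7 astrocyte markers (7 higher). It was 232 to 297 against 81197 to 108979 for 7 neutrophil markers (7 higher), 97.3 to 146 against 38292 to 48852 for 8 pluripotency markers (8 higher), and 1031 to 3591 against 9742 to 47491 for 6 choroid plexus and ependymal markers (6 higher). For 10 pericyte and smooth muscle markers it was 26333 to 45979 against 35374 to 68029, and these ranges overlapped. Of these 10 markers 3 were called higher and none lower, and 6 overlapped between the groups. For 6 pituitary markers the summed level was 13088 to 36927 against 171 to 180.4, with 5 lower and 1 (Lhb) higher. Of all tested genes 28.6% were called higher and 16.0% lower. The part of these marker differences in the changes of the members was not tested. In such sorted bulk samples a change in the number of cells of a type and a change in RNA per cell cannot be told apart.

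**Figure D1:**
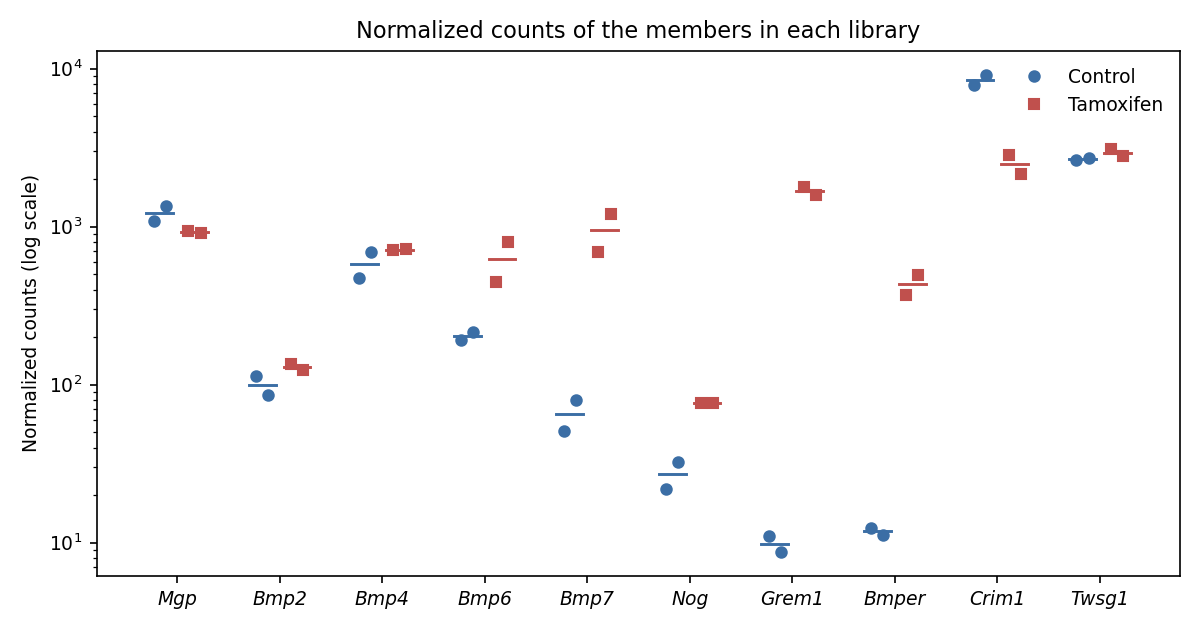
Normalized counts of the 10 genes in each library on a log axis, with control libraries as circles, tamoxifen libraries as squares and a line at each mean (n = 2). Grem1, Bmper and Bmp7 show the widest gaps between the groups, from 8.76 to 80.1 in the controls and from 367 to 1783 after tamoxifen, whereas Twsg1 stays between 2629 and 3087.

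Mgp (ENSMUSG00000030218, chr6:136849433-136852821, minus strand, 4 exons) is the deleted gene and was read first, with this and the other gene positions on GRCm39 from GENCODE and exons counted in the canonical transcript. It had 799 and 1080 reads in the controls and 872 and 1265 after tamoxifen. After the authors' factors these became 1094 and 1352 against 945 and 909 normalized counts, or 1223 ± 182 and 927 ± 25.2 (SD, n = 2). Both tamoxifen libraries were the lower ones, yet the log2 difference of -0.39 (95% interval -0.81 to 0.03) did not pass (limma, adjusted p = 0.0986). In RPM, which uses the library totals and no such factor, Mgp was 21.3 and 26.3 in the controls and 24.6 and 25.4 after tamoxifen, and the groups overlapped. The direction of Mgp thus turned with the scaling, to 0.08 when totals were made equal, and its level did not by itself check the reading of the columns. After quantile normalization Mgp was at -0.64 and passed the adjusted p but not the fold limit (limma, adjusted p = 0.0126). Set against the median of all tested genes, Mgp was at -0.44 with the authors' factors and with quantile normalization. Equal totals shift all genes by nearly the same amount, so the same -0.44 there was given in advance.

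The log2 difference of Mgp was nearer to 0 than those of the 10 endothelial markers, which ran from -4.10 to -2.75. Per 1000 normalized counts of the 10 endothelial markers, Mgp had 1.16 and 1.49 in the controls and 6.07 and 11.6 after tamoxifen. The table holds 1 value per gene, so reads of cut and uncut Mgp transcripts, or of Mgp from cells in which the promoter is silent, are not separated. Mgp was still the most abundant member per kilobase of transcript in each library, with 1797 and 2220 normalized counts per kb in the controls and 1552 and 1493 after tamoxifen.

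MGP is made active by γ-carboxylation in the vitamin K cycle. Ggcx, the carboxylase, had 1944 and 1869 normalized counts in the controls and 908 and 1006 after tamoxifen, and passed the adjusted p but not the fold limit (log2 fold change -0.99, limma, adjusted p = 0.00127). Nqo1, a quinone reductase that can recycle vitamin K, rose from 143 ± 18.6 to 617 ± 48.3 (SD, n = 2). It was the single gene called among the 5 of this list, where 44.7% of all tested genes were called. Vkorc1 and Vkorc1l1, the epoxide reductases, had log2 differences of -0.52 and 0.16 and did not pass. Of the 8 tested genes for other Gla proteins, 4 were called higher and 2 lower, where 28.6% and 16.0% of all tested genes were. Pros1, the anticoagulant protein S, fell from 7951 ± 368 to 3253 ± 438 (SD, n = 2). Gas6, a TAM receptor ligand, had 8043 ± 33.1 and 4585 ± 701 (SD, n = 2) and missed the fold limit with -0.82.

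Among the ligands, Bmp7 and Bmp6 rose, and Bmp2 and Bmp4 did not pass. Bmp7 (ENSMUSG00000008999, chr2:172709805-172782410, minus strand, 7 exons), a ligand of kidney, eye and bone development, had 50.7 and 80.1 normalized counts in the controls and 687 and 1211 after tamoxifen. Its mean was 14.5-fold higher, with a log2 fold change of 3.82 (SE 0.38, limma, adjusted p = 0.000134), and the lower tamoxifen library alone was well above both controls. Bmp7 was called in all 14 refits with other settings.

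Bmp6 (ENSMUSG00000039004, chr13:38529065-38684280, plus strand, 7 exons), which in the liver is released by endothelium to control iron, had 192 and 217 normalized counts in the controls and 449.8 and 802 after tamoxifen. The mean was 3.06-fold higher and the log2 fold change 1.55 (SE 0.32, limma, adjusted p = 0.00422). The increase was carried unevenly, and without tamoxifen library 2 the log2 fold change was 1.14 and not called (limma, adjusted p = 0.0886, range over all settings 7.89e-07 to 0.155). It was also not called after quantile normalization (0.64). An exon of Bmp6 overlaps Txndc5 on the opposite strand, which had 3067 and 3678 normalized counts in the controls and 6169 and 5558 after tamoxifen. The libraries were stranded but the strand setting of the counting is not given in the sources used here, so reads of these genes may not have been kept apart.

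Bmp4 (ENSMUSG00000021835, chr14:46620250-46636745, minus strand, 4 exons), a ligand that drives mesoderm and vessel formation, was the most abundant of the 4 ligands per kilobase in the controls. It had 473 and 692 normalized counts there and 708 and 721 after tamoxifen. Control library 2 nearly reached the tamoxifen values, and the log2 difference of 0.32 (95% interval -0.23 to 0.87) did not pass (limma, adjusted p = 0.273). Without control library 1 it was 0.05. Bmp2 (ENSMUSG00000027358, chr2:133394079-133404816, plus strand, 3 exons), an osteogenic ligand, was low in every library with 114 and 86.4 normalized counts in the controls and 134 and 124 after tamoxifen. Its log2 difference was 0.38 (95% interval -0.51 to 1.27, limma, adjusted p = 0.422). For both genes the direction flipped after quantile normalization, to -0.21 for Bmp4 and -0.85 for Bmp2, without passing. With equal totals Bmp4 was at 0.79 and passed the adjusted p but not the fold limit (limma, adjusted p = 0.0261), and Bmp2 was at 0.84 and did not pass.

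**Figure D2:**
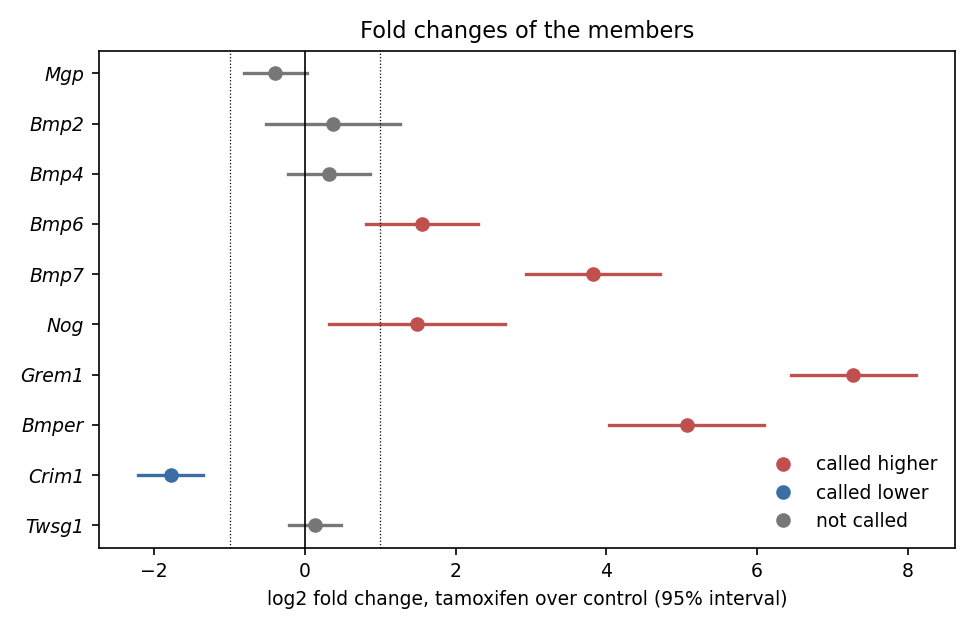
Log2 fold change of each gene, tamoxifen over control, with its 95% limma interval (n = 2 per group). Dotted lines mark a log2 fold change of 1 in either direction. Grem1 (7.28), Bmper (5.07) and Bmp7 (3.82) lie far to the right, Crim1 (-1.78) lies to the left, and the intervals of Mgp, Bmp2, Bmp4 and Twsg1 include 0.

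Of the secreted antagonists, Grem1, Bmper and Nog rose. Grem1 (ENSMUSG00000074934, chr2:113576509-113589000, minus strand, 2 exons), whose product gremlin binds BMP2, BMP4 and BMP7 and marks stromal cells in several organs, was nearly silent in the controls with 8 and 7 reads. In normalized counts it had 11.0 and 8.76 in the controls and 1783 and 1579 after tamoxifen. The log2 fold change was 7.28 (SE 0.36, limma, adjusted p = 8.76e-06), the largest of the members, and it lay between 6.77 and 7.73 in all 14 other settings. With so few control reads the size of the fold is imprecise.

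Bmper (ENSMUSG00000031963, chr9:23134325-23396509, plus strand, 15 exons), the homolog of crossveinless-2 that can either hold or hand over BMPs, had 9 reads in each control library. Its normalized counts were 12.3 and 11.3 in the controls and 367 and 498 after tamoxifen. This was a 36.7-fold difference of the means and a log2 fold change of 5.07 (SE 0.44, limma, adjusted p = 8.18e-05), called in all 14 other settings.

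Nog (ENSMUSG00000048616, chr11:89191464-89193158, minus strand, 1 exon), the gene of noggin, which blocks BMP2, BMP4 and BMP7, remained low in both groups. It had 21.9 and 32.5 normalized counts in the controls and 76.9 and 76.2 after tamoxifen, from 16 to 106 reads per library. The log2 fold change was 1.48 (SE 0.50, limma, adjusted p = 0.0349). This call was the least secure of the 5. It was lost without control library 1 (adjusted p = 0.104), without tamoxifen library 1 (0.154), without tamoxifen library 2 (0.149) and after quantile normalization (0.350; limma, range over all settings 0.0137 to 0.350), and Nog was not tested with a minimum mean of 100 normalized counts.

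Crim1 and Twsg1, the more abundant of these inhibitors, differed from each other: Crim1 fell and Twsg1 did not pass. Crim1 (ENSMUSG00000024074, chr17:78507601-78684021, plus strand, 17 exons), a membrane protein with cysteine-rich repeats that tethers BMPs and is found in endothelium, had 7877 and 9179 normalized counts in the controls and 2846 and 2144 after tamoxifen. It fell by 1.78 on the log2 scale (SE 0.19, limma, adjusted p = 0.000165), with control values 3.42-fold those of the tamoxifen group, and it was called in all 14 other settings. Per 1000 endothelial marker counts, Crim1 had 8.37 and 10.1 in the controls and 18.3 and 27.4 after tamoxifen, so its loss was smaller than that of the markers. Fez2, which overlaps an exon of Crim1 on the opposite strand, was lower as well, with 3583 and 4025 against 1811 and 1462 normalized counts.

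Twsg1 (ENSMUSG00000024098, chr17:66228966-66258380, minus strand, 5 exons), which forms a complex with chordin and BMPs, had the difference nearest to 0 among the members with the authors' factors, but not with equal totals (0.60) or quantile normalization (0.30). It had 2629 and 2723 normalized counts in the controls and 3087 and 2787 after tamoxifen, with a log2 difference of 0.13 (95% interval -0.22 to 0.48, limma, adjusted p = 0.469). With the authors' factors this interval leaves out changes of the size used for a call. With equal totals the difference passed the adjusted p but not the fold limit (limma, adjusted p = 0.00622).

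To compare levels between genes, normalized counts were divided by the length of the canonical transcript. In the controls the order was Mgp (mean 2008 per kb), Crim1 (1405), Twsg1 (655), Bmp4 (209), Bmp6 (56.8), Bmp2 (28.0), Bmp7 (16.5), Nog (16.1), Bmper (3.09) and Grem1 (2.37). Bmp7 and Nog overlapped there. After tamoxifen the order was Mgp (1523), Twsg1 (719), Crim1 (411), Grem1 (404), Bmp4 (256), Bmp7 (239), Bmp6 (174), Bmper (113), Nog (45.2) and Bmp2 (36.2). Crim1 overlapped Grem1, and the range of Bmp7 overlapped those of Bmp4 and Bmp6, and Bmp6 overlapped Bmper, so these neighbours were not separated by their spread. Grem1 thus moved from the lowest place to the level of Crim1.

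**Figure D3:**
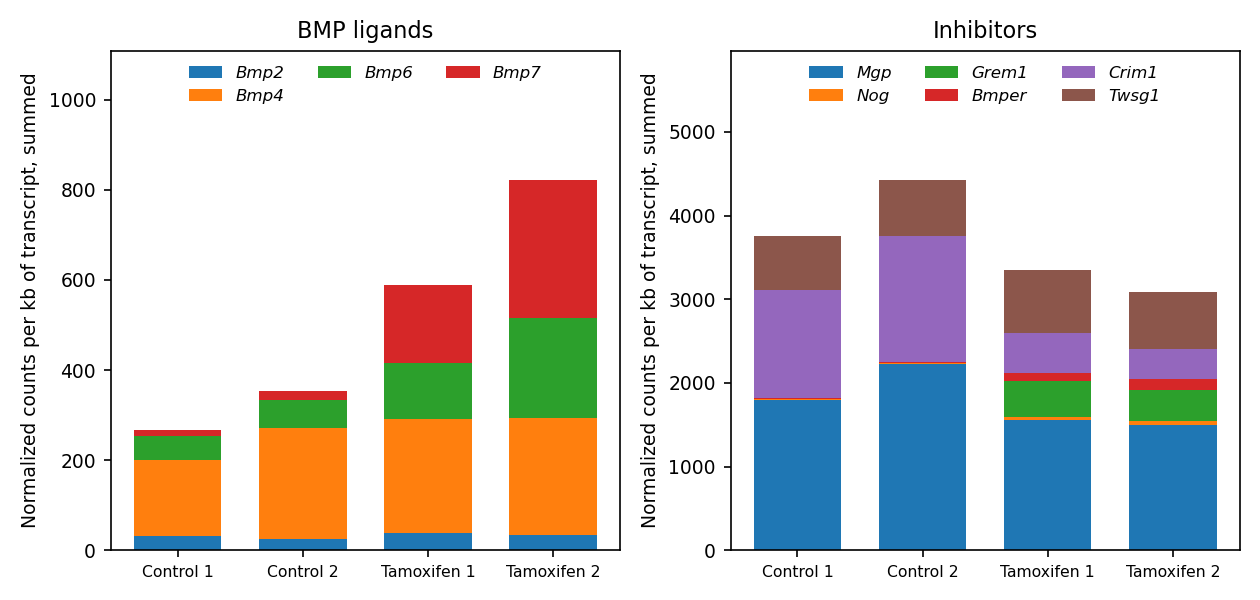
Normalized counts per kb of canonical transcript in each library, stacked for the 4 ligands (left) and the 6 inhibitors (right), with axes that start at 0 and differ in scale. The ligand sum is 267 and 353 in the controls and 590 and 821 after tamoxifen, and the inhibitor sum is 3757 and 4422 against 3346 and 3084.

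The ligands together had 267 and 353 normalized counts per kb in the controls and 590 and 821 after tamoxifen. Bmp4 made up 63.3% and 70.3% of this sum in the controls and 43.0% and 31.5% after tamoxifen, while Bmp7 went from 4.78% and 5.73% to 29.4% and 37.2%. The 6 member inhibitors together had 3757 and 4422 per kb in the controls and 3346 and 3084 after tamoxifen. The 12 other listed inhibitors are not in this sum. Their summed normalized counts, not divided by length, were 2663 and 3855 in the controls and 12004 and 14170 after tamoxifen. Of the per-kb sum of the 6 member inhibitors, Mgp held 46.4% to 50.2% in each library. In that per-kb sum the share of Crim1 was 34.5% and 34.2% in the controls and 14.0% and 11.5% after tamoxifen. Grem1 took 0.0700% and 0.0480% of it in the controls against 12.8% and 12.3%. The ratio of summed inhibitor RNA to summed ligand RNA of the members was 14.1 and 12.5 in the controls and 5.67 and 3.75 after tamoxifen. It depends on the genes summed. A single factor per library cancels in it, but quantile normalization would not, and the ratio was not computed with that setting. These sums add RNA of proteins that differ in affinity, and they are given as a description, without a test.

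The other genes of the pathway were read from lists of 50 genes, of which 43 were in the table and 39 were tested. Of these 39, 71.8% were called, against 44.7% of all tested genes (28.6% higher and 16.0% lower). The lists were chosen with earlier results known. In these lists 16 genes were called higher and 12 lower, and 9 rather than 16 were higher without tamoxifen library 2. Among other ligands 4 of 6 tested genes rose (Bmp5, Bmp8a, Bmp8b and Gdf6) and 1 fell, all at low levels, and without tamoxifen library 2 Bmp8a was the 1 gene still called higher. Bmp5 rose from 47.4 ± 10.9 to 150.2 ± 56.0 normalized counts (SD, n = 2), Bmp8a had no read in the controls and was at least 10.1-fold higher against a floor of 3 reads per library, and Bmp15, an oocyte ligand, fell from 61.6 ± 3.93 to 21.4 ± 10.4 (SD, n = 2). The call of Bmp5 was lost without tamoxifen library 1 too, that of Gdf6 held in 6 of 12 other settings, and that of Bmp15 held in 5 of 13.

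Among other extracellular inhibitors 6 of 9 tested genes were called higher and 1 lower, against 28.6% and 16.0% of all tested genes. The median log2 fold change of these 9 was 2.06. Chrd and Sostdc1 lost their call when either tamoxifen library was left out. Fstl1, a follistatin-like glycoprotein, had 1271 and 1599.5 normalized counts in the controls and 8267 and 8590.1 after tamoxifen. Chrdl1, a chordin-like antagonist, rose from 41.1 and 68.8 to 1068 and 1988, and Fst, the activin and BMP binder follistatin, from 38.4 and 50.1 to 1165 and 914. Chrd, the gene of chordin itself, rose from 70.7 ± 39.9 to 275 ± 41.6 (SD, n = 2). Dand5, of the Cerberus and DAN family, fell from 472 ± 45.8 to 129.7 ± 9.64 (SD, n = 2), and Nbl1 did not pass (log2 difference 0.33).

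Kcp, whose product enhances BMP binding to receptors, fell from 15270 and 11938 normalized counts to 3128 and 1725. Bmp1, a protease that cuts chordin, had 1987 and 2124 in the controls and 3174 and 3990 after tamoxifen, and its log2 difference of 0.79 was under the fold limit (limma, adjusted p = 0.00493). Of the RGM coreceptors, Rgma rose from 594 ± 238 to 4473 ± 1513 (SD, n = 2), Hjv, the iron regulator hemojuvelin, was at least 9.81-fold higher, and Rgmb was at -0.53. Without tamoxifen library 2 Rgma was not called (limma, adjusted p = 0.0513).

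Among 8 receptors 2 were called higher and 4 lower, where 28.6% and 16.0% of all tested genes were. Bmpr1a, the gene of the type I receptor ALK3, rose from 342 and 413 to 2946 and 3558 normalized counts, and Bmpr1b rose too. The endothelial receptor Acvrl1 (ALK1) fell from 50089.7 ± 3126 to 6126 ± 3303 (SD, n = 2), and Eng, Bmpr2 and Acvr1 were also lower, although Acvr1 was under the fold limit with equal totals (-0.90). Of 10 genes induced by BMP signaling, 5 were called lower and 2 higher, against the same shares of all tested genes. Id1, a classical target, fell from 20806 and 23829 to 4242 and 2135, and Id3, Smad6, Smad7 and Atoh8 fell with it, whereas Id4 rose from 136 and 183 to 1147 and 1633. Log2 fold changes of the receptors and targets called lower ran from -3.14 (Acvrl1) to -1.37 (Acvr1), against -4.10 to -2.75 for the 10 endothelial markers. The part of the lower endothelial RNA in these falls was not tested.

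**Figure D4:**
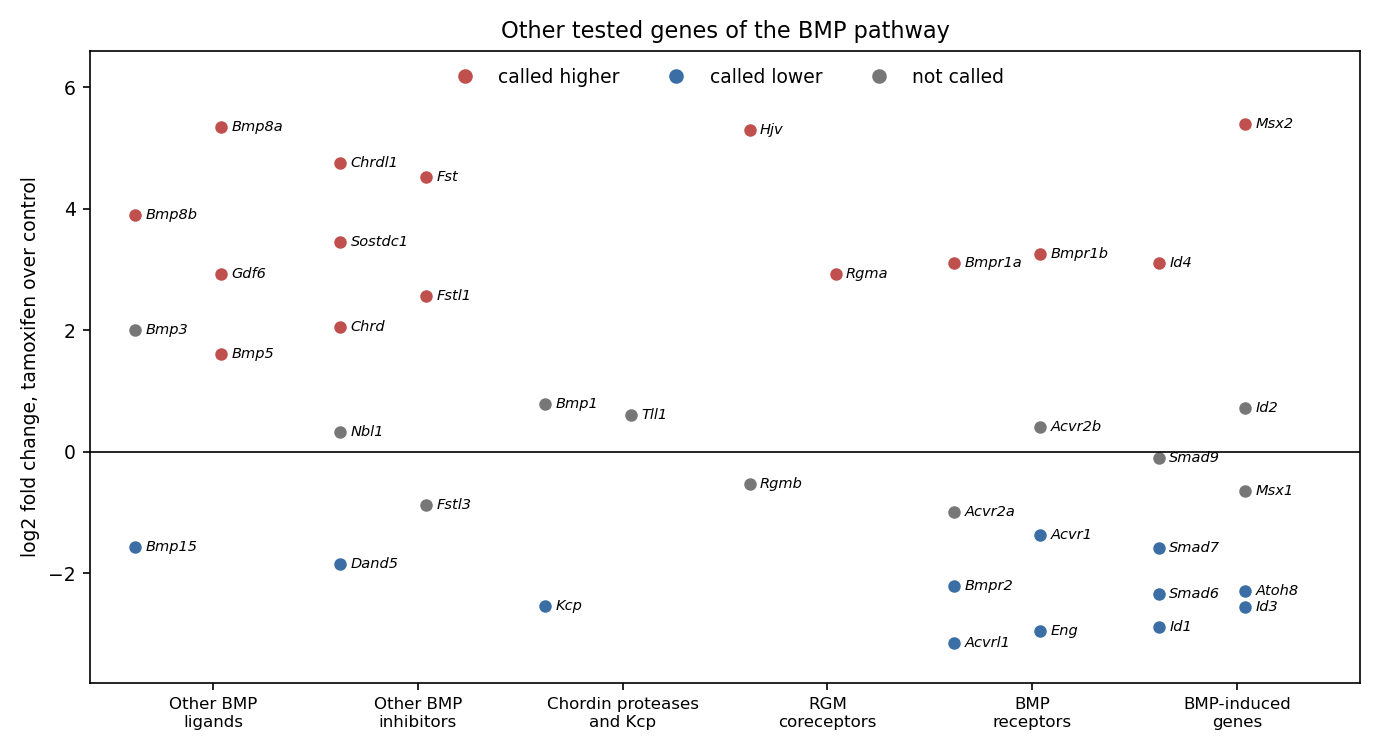
Log2 fold change, tamoxifen over control, of other tested genes of the BMP pathway, by list, with red for genes called higher, blue for genes called lower and grey for genes not called. The receptor column holds 4 blue points, and most named inhibitors are red. Not every tested gene is plotted. Points of genes with almost no control reads (Bmp8a, Bmp8b, Gdf6, Hjv, Msx2) depend on the pseudocount of 1.

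**Figure D5:**
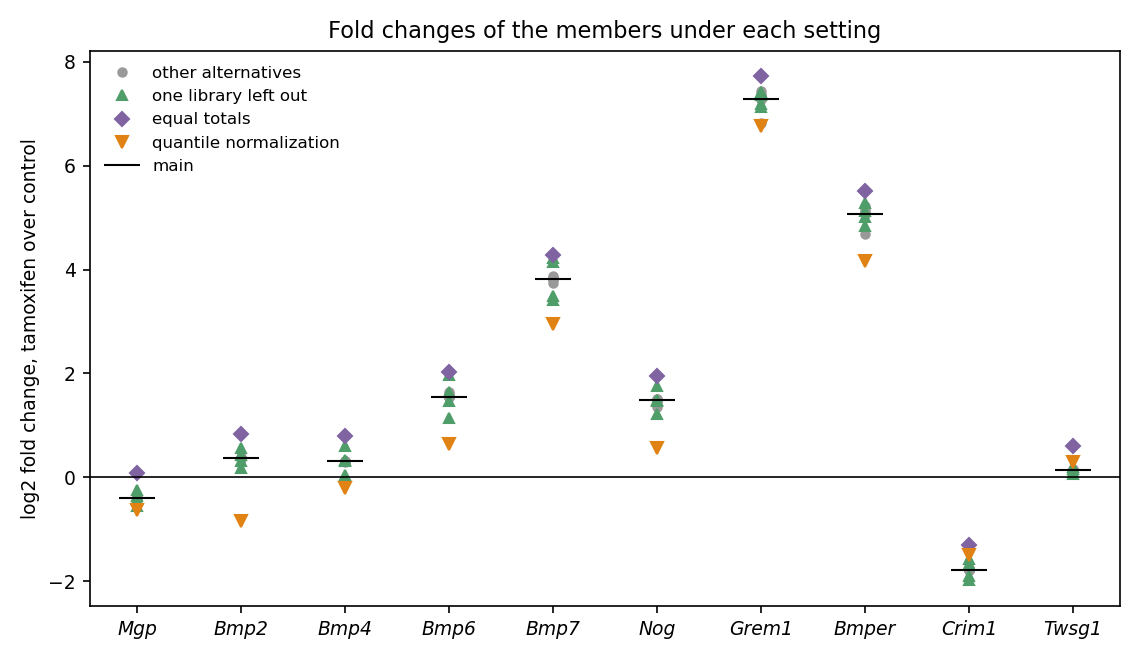
Log2 fold change, tamoxifen over control, of each gene in the reported fit (black bar) and under the other settings, with triangles for 1 library left out, diamonds for equal totals and inverted triangles for quantile normalization. Grem1, Bmper, Bmp7, Bmp6 and Nog stay above 0 and Crim1 below it in each setting, whereas the points of Mgp, Bmp2 and Bmp4 fall on both sides of 0.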

How the data were processed

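Stranded mRNA libraries were aligned by the authors with STAR 2.7.10a to GRCm39, counted in the same step and scaled with DESeq2 1.36.0, after genes with low counts had been removed. Each deposited value is thus a signal, a read count over the factor of its library. The annotation release, strand setting and low-count limit are not given in the sources used here. Whole reads were recovered from the value of 1 read in each column (tolerance 0.01 reads, 100% whole), and 3 reads were taken as the floor, for counting error only.

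limma 3.58.1 in R 4.3.3 (lmFit, eBayes with trend) was fitted on log2(value + 1), which understates folds of low genes, and p-values were adjusted over all 20485 tested genes. The fit was also run on simulated counts with a single fixed dispersion and a small share of changed genes. That run does not check the fit for data with as many changed genes as these. Alternatives were other pseudocounts, filters and scalings, no trend, a replicate block, count tests of the recovered reads with edgeR 4.0.16 and DESeq2 1.42.0, and each library left out. Gene positions, strands and lengths came from GENCODE M39, upstream sequences from RefSeq (table on GRCm38.p6) matched to GRCm39. Members and lists were chosen with earlier results of these data known. All members were named with values, and other genes by list, with at most 6 values per list, for genes called or with a group mean of at least 100, the highest means first. Marker lists are given by their sums. 1 gene of the pathway lists enters the counts and is not reported here by name or value.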

Additional observations from a re-analysis of the deposited data

How the results depend on the processing

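Bmp7, Grem1, Bmper and Crim1 were called in the same direction in all 14 refits, and Mgp, Bmp2, Bmp4 and Twsg1 in none. The number of members called higher was 5, and it was 3 after quantile normalization and 3 to 5 with 1 library left out (3 without tamoxifen library 2), while 1 member was called lower throughout. The other BMP pathway genes called higher numbered 16, against 9 with a minimum mean of 100 normalized counts and 9 to 16 with 1 library left out (10 without tamoxifen library 1 and 9 without tamoxifen library 2). Of all tested genes 9151 were called, against 5934 with that minimum (13668 genes tested) and 4979 to 10001 with 1 library left out (5811 without tamoxifen library 1 and 4979 without tamoxifen library 2, each leaving that group with 1 library whose spread is assumed to equal the others'). The log2 difference of Mgp turned to 0.079 with equal totals, and those of Bmp2 and Bmp4 to -0.85 and -0.21 after quantile normalization, and the cause was not tested. Equal totals moved the median of all genes from 0.05 to 0.52, and quantile normalization to -0.20. The replicate numbers are shared by the groups but not described as pairs, and the deviations of same-numbered libraries had a correlation of 0.0251 across genes. With the number as a replicate block 9525 genes were called, with 5 members higher and 1 lower. edgeR's quasi-likelihood test called 9241 genes and DESeq2 8739, with the members' calls unchanged in both. Nog has as few as 16 reads in a library, which limits its precision.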
